A study of Mus musculus with 9 samples.

Results

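The regions described here are p300 peaks of a mouse T-cell lymphoma that carried neither the promoter mark H3K4me3 nor N-MYC. They were the p300 peaks on chromosomes 1 to 19, X and Y that overlapped, by 1 bp or more, no peak of H3K4me3, N-MYC, SUZ12 or H3K27me3, and there were 2181 of them among 15646 p300 peaks (13.9%, 95% Wilson interval 13.4 to 14.5). All 7 peak lists of the study together held 282301 peaks. The cells came from the thymus of C57BL/6J mice with MYCN-driven T cell lymphoma, and every library came from this single kind of tumour, with no normal thymus or other genotype beside it. ChIPmentation, in which a transposase adds sequencing adapters to chromatin still held by the antibody, was done with antibodies against EZH2, SUZ12, H3K27me3, H3K4me3, H3K27ac, N-MYC and p300, with 1 library each, and 2 input samples completed the 9 samples. The labels do not give the promoter that drives MYCN, the ages, or how many animals each library holds. The regions were chosen by the measured peak calls of 5 of these libraries, so their position off the 4 lists is not a finding. With 1 library for each antibody there was no replicate to measure error from, no p-value is given, and the Wilson intervals cover counting error only.

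The acetyltransferase p300 is recruited by DNA-bound transcription factors and acetylates histones, H3K27 among them, and its peaks away from promoters are a classical marker of enhancers. H3K27ac marks active promoters and active enhancers, whereas H3K4me3 marks the starts of active genes. In T cells such enhancers are known at genes of the T-cell receptor, its signalling chain and the factors that set T-cell identity. SUZ12 and EZH2 belong to Polycomb repressive complex 2, which deposits the repressive mark H3K27me3, and N-MYC is the transcription factor that drives this lymphoma.

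The 2181 peaks are called distal p300 peaks below, although the rule used H3K4me3 and not the position of genes. The name holds for most of them: 432 (19.8%, 18.2 to 21.5) had their summit within 5 kb of the nearest protein-coding gene start and 40 (1.83%) within 300 bp. Positions are those of build GRCm38, and genes and promoter sequences were taken from RefSeq annotation of GRCm38.p6. The annotation used here gives gene spans but no exons, so sites inside a gene were not divided into exonic and intronic ones.

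Promoter sequence could be read for 25 RefSeq windows (250 bases before to 50 after a transcript start) that held the summit of a distal p300 peak, 24 distinct peaks in all. They fell into 16 windows of coding genes and 9 of long non-coding RNAs. The first set shown is the 150 bases upstream of 4 coding genes whose p300 peak lay off every H3K27ac peak, chosen after their values were seen. At Dynlrb2 the nearest H3K27ac peak was only 31 bp away, against 6991 bp at Ccdc13, 4583 bp at Cfap45 and 27431 bp at Celf6. Capitals mark matches to GTNNCC and GNAAC separated by any 3 bases, an inverted repeat of the kind that transcription factors of the RFX family recognise, and to GTTGCC, a shorter RFX-type run. Both strands were searched. These promoters are at chr9:121839462-121839611 (minus strand) for Ccdc13, chr1:172520980-172521129 (plus) for Cfap45, chr9:59589138-59589287 (plus) for Celf6 and chr8:116504865-116505014 (plus) for Dynlrb2, and each sequence ends at the base before the start.
Ccdc13: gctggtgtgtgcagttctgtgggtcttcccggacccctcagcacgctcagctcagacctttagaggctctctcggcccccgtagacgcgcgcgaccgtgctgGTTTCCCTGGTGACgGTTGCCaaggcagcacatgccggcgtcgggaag
Cfap45: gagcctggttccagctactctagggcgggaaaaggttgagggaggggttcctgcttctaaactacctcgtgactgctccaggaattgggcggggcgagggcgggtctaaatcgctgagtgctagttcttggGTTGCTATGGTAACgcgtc
Celf6: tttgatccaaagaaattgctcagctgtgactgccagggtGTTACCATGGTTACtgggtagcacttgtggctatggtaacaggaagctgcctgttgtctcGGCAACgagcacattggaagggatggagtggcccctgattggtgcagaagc
Dynlrb2: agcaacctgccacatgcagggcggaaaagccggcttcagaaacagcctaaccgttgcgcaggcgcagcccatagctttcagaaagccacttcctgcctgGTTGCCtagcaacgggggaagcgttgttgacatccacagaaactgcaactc

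The inverted repeat began 48 bases before the start of Ccdc13, 19 before that of Cfap45 and 111 before that of Celf6. In Dynlrb2 the search found only the shorter run, 51 bases before the start. The printed bases nevertheless show GCAAC, which matches GNAAC, after this run, with only TA between them. That spacing is shorter than the searched spacing, so this inverted repeat was neither marked nor counted. Other spacings were not searched in any window. Of the 9 windows whose distal p300 peak had no H3K27ac, 5 held the inverted repeat (55.6%, 26.7 to 81.1) and 7 held GTTGCC. Of the 16 windows whose peak had H3K27ac, 2 held the inverted repeat (12.5%) and 2 held GTTGCC. Over all 32851 promoter windows the shares were 2.17% for the inverted repeat and 12.5% for GTTGCC, and over the 4229 windows with the summit of a p300 peak on H3K4me3 they were 4.19% and 14.7%. Both RFX motifs were added after the gene names had been seen, and a match describes letters, not a bound factor.

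The second set is 4 windows at long non-coding RNAs in which a distal p300 peak with H3K27ac had its summit. They were chosen from 9 such windows after their values were seen. Gm40608 (chr10:21185877-21186176, minus) and Gm33619 (chr10:21186694-21186993, plus) belong to a group of such peaks upstream of Myb. Gm13982 (chr2:117417648-117417947, minus) had Rasgrp1 as its nearest coding gene, at 74817 bp, and Gm4668 (chr9:116188930-116189229, plus) had Tgfbr2, at 13788 bp. Capitals mark matches on either strand to motifs of factor families that work in T cells. For the ETS family the letters searched were AGGAAG, and for the RUNX family, which includes the T-cell factors RUNX1 and RUNX3, they were TGTGGT. For the HMG-box factors TCF-1 and LEF-1 they were CTTTGA, and for the GATA factors, with GATA3 in T cells, AGATAA. The E-proteins, which partner with ID proteins in thymocytes, were searched as CAGCTG and as CAGATG. The AP-1 motif, read by FOS and JUN dimers after T-cell activation, was TGANTCA. The ETS motif contains the core GGAA, which was counted separately and is not marked.
Gm40608: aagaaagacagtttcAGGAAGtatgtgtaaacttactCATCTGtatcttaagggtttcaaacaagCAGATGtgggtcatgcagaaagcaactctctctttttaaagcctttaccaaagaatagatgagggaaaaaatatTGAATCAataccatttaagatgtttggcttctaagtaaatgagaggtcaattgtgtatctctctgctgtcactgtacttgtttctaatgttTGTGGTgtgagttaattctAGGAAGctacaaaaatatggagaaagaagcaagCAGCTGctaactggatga
Gm33619: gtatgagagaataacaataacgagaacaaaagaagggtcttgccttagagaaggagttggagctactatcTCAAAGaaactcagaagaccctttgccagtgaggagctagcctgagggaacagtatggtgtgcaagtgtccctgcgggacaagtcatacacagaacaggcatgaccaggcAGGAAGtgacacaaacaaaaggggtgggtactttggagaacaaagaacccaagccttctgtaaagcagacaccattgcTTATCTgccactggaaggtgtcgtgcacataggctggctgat
Gm13982: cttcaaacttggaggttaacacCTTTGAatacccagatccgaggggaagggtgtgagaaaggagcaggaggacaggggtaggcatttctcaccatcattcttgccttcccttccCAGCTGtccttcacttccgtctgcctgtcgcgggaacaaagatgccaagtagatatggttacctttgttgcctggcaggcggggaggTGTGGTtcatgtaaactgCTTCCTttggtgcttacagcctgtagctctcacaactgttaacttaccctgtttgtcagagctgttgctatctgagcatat
Gm4668: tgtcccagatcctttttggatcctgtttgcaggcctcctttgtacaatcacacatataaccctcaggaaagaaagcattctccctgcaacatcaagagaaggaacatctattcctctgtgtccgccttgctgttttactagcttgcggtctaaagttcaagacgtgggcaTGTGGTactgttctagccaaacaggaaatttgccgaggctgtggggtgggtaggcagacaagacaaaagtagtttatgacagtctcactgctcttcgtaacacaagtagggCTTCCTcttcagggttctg

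Each of these 4 windows held AGGAAG, and Gm40608 held it at 2 places beside a RUNX, an AP-1 and 3 E-protein matches. The non-coding windows not shown held no RUNX, GATA, E-protein or AP-1 match, and that of Gm19897 held no AGGAAG. Over the 25 windows with a distal p300 summit, AGGAAG was found in 16 (64.0%, 44.5 to 79.8) against 35.4% of all promoter windows. The first E-protein motif was found in 11 of 25 (44.0%, 26.7 to 62.9) against 16.3%. Over the 25 windows the intervals of these motifs did not reach the share of all windows. Most of the matches to CAGCTG were in windows whose peak had no H3K27ac, 7 of 9 (77.8%, 45.3 to 93.7). Of the 16 windows with H3K27ac, 4 held it, and the interval of 10.2 to 49.5% included the share of all windows. AGGAAG was in 6 of these 9 and in 10 of these 16. Of the 25 windows, 7 held the RUNX motif (28.0%, 14.3 to 47.6) against 16.8%, and 6 the TCF motif (24.0%, 11.5 to 43.4) against 16%. The second E-protein motif was found in 1 window against 17.2%, the GATA motif in 2 against 11.2%, the AP-1 motif in 1 against 7.81%, and CACGTG, the E-box bound by MYC proteins, in 3 against 7.15%. For these motifs the interval included the share of all windows. The GGAA core was in all 25 windows and in 96.0% of all windows. These windows sample only the distal p300 peaks that lie at an annotated transcript start.

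Distal p300 peaks were weak and narrow beside p300 peaks on promoters with N-MYC, and close to those on promoters without it. The authors' fold enrichment, the ratio of signal to local background at a peak, had a median of 3.78 (quartiles 3.42 to 4.21) and ran from 1.97 to 9.49, and the median width was 312 bp. At the 7138 p300 peaks on both H3K4me3 and N-MYC the median was 5.27 and the width 1045 bp. The 710 p300 peaks with N-MYC but without H3K4me3 lay between these, at 4.13 and 505 bp. The remaining classes were 5266 peaks on H3K4me3 without N-MYC, with a median fold of 3.92 and a width of 374 bp, and 351 peaks with SUZ12 or H3K27me3, with 4.11. The rule did not use the p300 value, but these peaks were all drawn from the same p300 list.

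**Figure D1:**
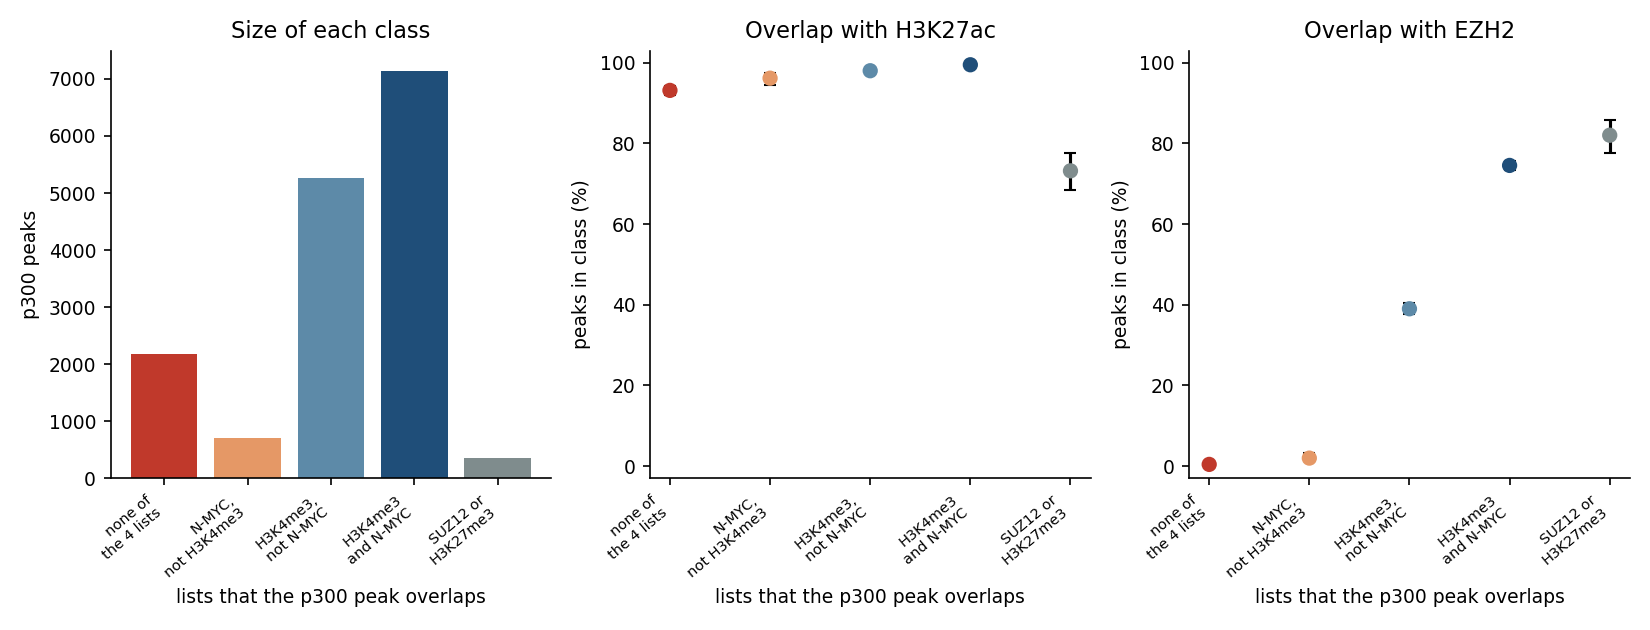
Number of p300 peaks in each class (left), share overlapping an H3K27ac peak (middle) and share overlapping an EZH2 peak (right), with 95% Wilson intervals as bars around the points. Classes are named by the lists that the p300 peak overlaps; the distal class, in red, sits at 93.2% for H3K27ac and at 0.413% for EZH2.

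Nearly all distal p300 peaks were acetylated: 2032 of 2181 (93.2%, 92.0 to 94.2) overlapped an H3K27ac peak, against 97.4% of all p300 peaks. The share was 96.2% (94.5 to 97.4) for N-MYC peaks off H3K4me3, 98.0% on H3K4me3 without N-MYC and 99.5% on both. Where SUZ12 or H3K27me3 was present it was 73.2% (68.4 to 77.6). Acetylation at distal p300 sites was thus nearly as frequent as elsewhere in the list, and more frequent than at p300 peaks with a Polycomb feature.

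EZH2 was almost missing from the distal p300 peaks. Only 9 of them (0.413%, 0.217 to 0.782) overlapped an EZH2 peak, against 49.1% of all p300 peaks. The share was 1.97% (1.18 to 3.28) at N-MYC peaks off H3K4me3, 39.0% on H3K4me3 alone and 74.6% on H3K4me3 with N-MYC. The 3 of the 9 with the highest p300 fold lay nearest to Gnai2, a G-protein subunit gene (EZH2 fold 4.95), Lgals7, a galectin gene (6.00), and H2-T24, a non-classical MHC gene (3.68). The rule removed peaks with SUZ12, the partner of EZH2 in the Polycomb complex, but did not use EZH2 itself. It also removed peaks on H3K4me3, where most of the EZH2 overlap lay. Of the 7687 p300 peaks with EZH2, 5322 were on H3K4me3 with N-MYC and 2054 on H3K4me3 without it. The exclusion of H3K4me3 thus bears directly on this contrast, which is a description.

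The H3K27ac peaks under distal p300 were broad. Their median fold was 11.2 (quartiles 7.66 to 14.9) and their median width 3451 bp, so that the p300 peak covered a small part of each. At N-MYC peaks off H3K4me3 the values were 11.1 and 3038 bp, and at p300 peaks on H3K4me3 with N-MYC they were 15.0 and 2369 bp. By these medians H3K27ac was lower and wider at distal p300 sites than at promoters. The p300 summit lay a median of 489 bp from the H3K27ac summit, against 469 bp on H3K4me3 without N-MYC, 319 bp at N-MYC peaks off H3K4me3 and 322 bp on H3K4me3 with N-MYC.

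Part of this acetylation came from domains that extended to H3K4me3 or to another excluded feature. Of the 2032 acetylated peaks, 669 (32.9%, 30.9 to 35) lay on an H3K27ac peak that itself overlapped H3K4me3, N-MYC, SUZ12 or H3K27me3, 490 of them through H3K4me3. Their median H3K27ac fold was 14.4 and the median H3K27ac width 5364 bp, and their summit lay a median of 11992 bp from a gene start. The other 1363 lay on H3K27ac peaks that touched none of the 4 lists. Their median H3K27ac fold was 9.88, the median H3K27ac width 2784 bp and the median distance 23400 bp. The p300 fold was 3.76 in the former and 3.78 in the latter, so the medians stood apart for H3K27ac and lay close together for p300.

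By the gap to the nearest H3K4me3 peak, 427 distal p300 peaks (19.6%) lay under 1 kb away, 577 at 1 to 10 kb, 786 at 10 to 50 kb and 391 beyond 50 kb. The share with H3K27ac was 92.0, 94.6, 93.0 and 92.6% in that order, and the intervals of the 4 shares overlapped. The median H3K27ac fold was 13.1 in the nearest class and 10.8, 10.7 and 10.9 in the others. By these medians only the peaks under 1 kb from an H3K4me3 peak stood on higher H3K27ac. Over the 2032 acetylated peaks, Spearman's rho between p300 fold and H3K27ac fold was 0.08, a description over peaks of 1 pair of libraries. From the weakest to the strongest quartile of p300 fold the share with H3K27ac was 93.8, 93.0, 92.7 and 93.2%, and the median H3K27ac fold was 10.9, 10.5, 11.2 and 12.2.

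The relation was steeper when read from the H3K27ac side. Off the 4 excluding lists there were 68126 H3K27ac peaks, of which 1179 (1.73%, 1.64 to 1.83) overlapped a distal p300 peak. These had a median fold of 8.997 (quartiles 6.19 to 12.3) and a median width of 2437 bp, against 3.84 and 355 bp for the 66902 without any p300 peak. Among those with distal p300, 41.5% (38.7 to 44.3) had a fold of at least 10, against 0.907% of those without p300. In the strongest of 10 equal groups of H3K27ac peaks by fold 13.4% (12.6 to 14.2) carried distal p300, in the next 1.57%, and in the weakest 0.191%. Wide peaks offer more bases to overlap, and the median width rose from 286 bp in the weakest group to 1620 bp in the strongest; the part of width in this result was not tested.

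**Figure D2:**
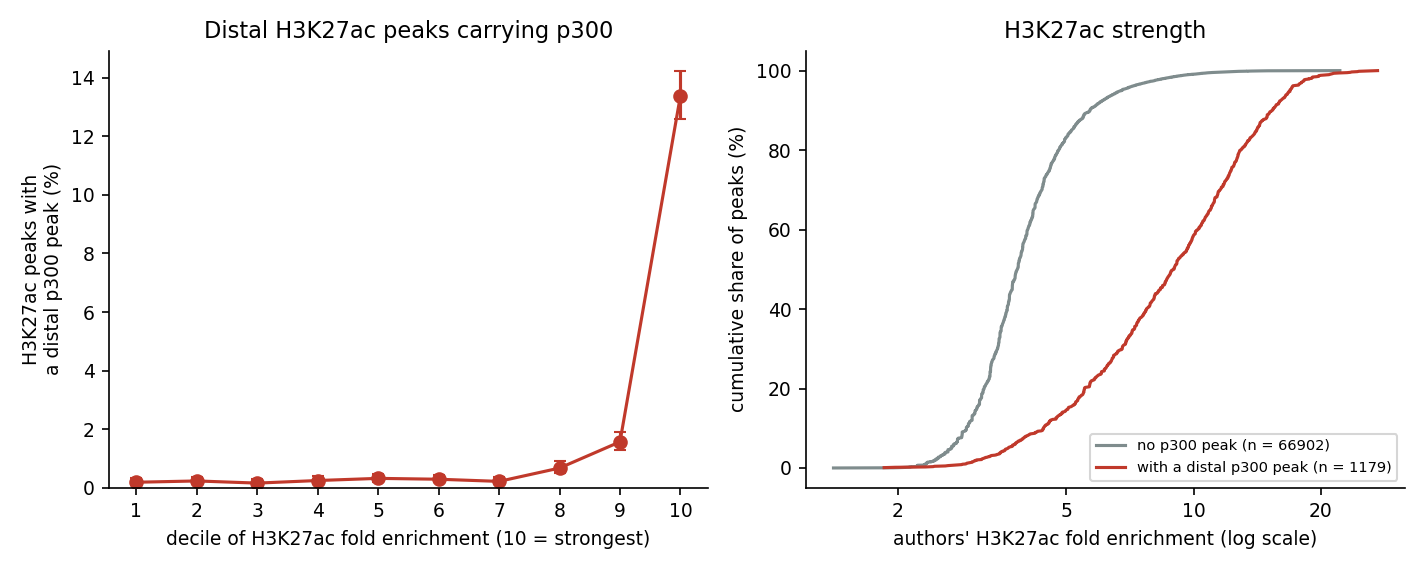
Left, share of H3K27ac peaks outside the 4 excluding lists that overlap a distal p300 peak, by decile of the authors' H3K27ac fold enrichment, with 95% Wilson intervals; right, cumulative share of those H3K27ac peaks by fold enrichment (log axis) with a distal p300 peak (red, median 8.997) and without any p300 peak (grey, median 3.84). The share stays under 1% through decile 8 and reaches 13.4% in decile 10.

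The summits of distal p300 peaks lay a median of 19447 bp (quartiles 6910 to 43900) from the nearest protein-coding gene start. The median was 20299 bp for N-MYC peaks off H3K4me3, 729 bp on H3K4me3 without N-MYC and 200 bp on H3K4me3 with N-MYC. Since H3K4me3 sits at gene starts, its exclusion bears directly on this contrast, which is a description. Within 10 kb lay 32.6% of the distal p300 peaks, within 50 kb 78.9% and within 100 kb 91.9%. A protein-coding gene span held 1201 of the summits (55.1%, 53.0 to 57.1).

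**Figure D3:**
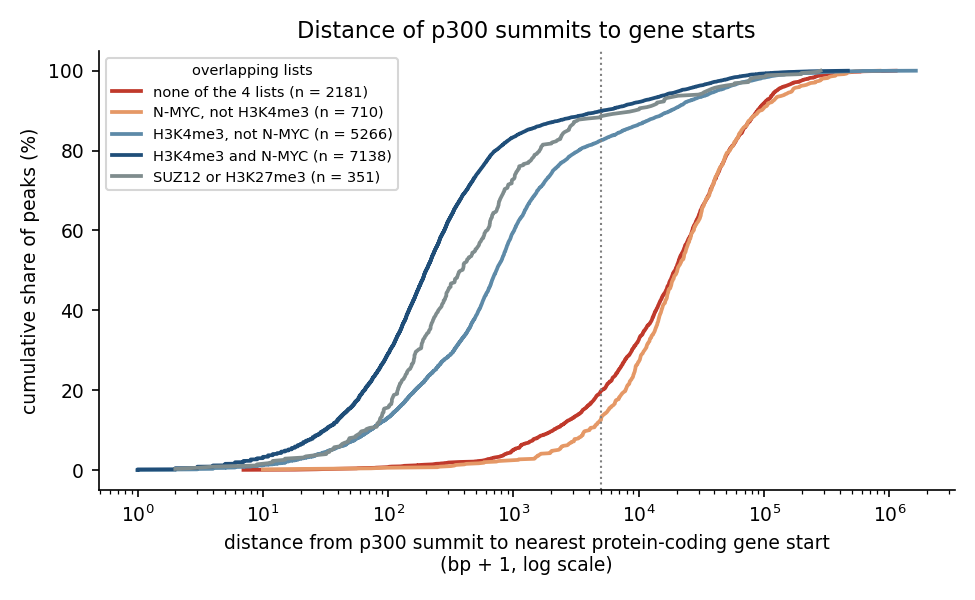
Cumulative share of p300 summits by distance to the nearest protein-coding gene start (bp plus 1, log axis), with 1 line per class and the class sizes in the legend; the dotted line stands at 5 kb. The distal class (red) and the N-MYC class off H3K4me3 (orange) run close together, with medians of 19447 and 20299 bp, and the H3K4me3 classes reach 82.6 and 89.9% by 5 kb.

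Most distal p300 peaks stood alone. Joined over gaps of up to 10 kb, they made 1678 groups, of which 1310 were single peaks, 279 pairs, 60 groups of 3, 21 of 4, 2 of 5, 3 of 6 and 3 of 7. In groups of 3 or more lay 313 peaks (14.4%, 12.9 to 15.9), against 32.6% of all p300 peaks, a denser list, joined in the same way. Joined within their own class, the share was 2.54% for N-MYC peaks off H3K4me3, 6.14% on H3K4me3 with N-MYC, 8.26% with SUZ12 or H3K27me3 and 20.5% on H3K4me3 without N-MYC, and these classes differ in size. The distal share fell to 9.18% when every list was limited to a −log10 q of at least 5, and to 5.49% with a fold of at least 4. Neighbouring peaks often shared an acetylated domain: 155 of the 1179 H3K27ac peaks held 2 distal p300 peaks, and 33 held 3 to 5.

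The 3 groups of 7 differed in setting. The first lay inside Cdk6, the gene of a D-cyclin-dependent kinase that drives T-cell proliferation (chr5:3499639-3513017), with p300 folds of 3.78 to 5.40. It was 156040 to 168966 bp downstream of the Cdk6 start, and the start of Fam133b was nearer. Its first 6 peaks lay on a single H3K27ac peak of 15766 bp with a fold of 25.3, and the 7th on a peak of fold 10.3. The wider H3K27ac peak also held an N-MYC peak of fold 6.29 and a p300 peak outside the distal class. That p300 peak had a fold of 9.62, above those of the 7, so the domain was not free of N-MYC. The second group lay 83606 to 90512 bp from Akap11, the gene of a kinase-anchoring protein (chr14:78432001-78439183), with all 7 on an H3K27ac peak of fold 17.0. An H3K4me3 peak lay 132 bp and an N-MYC peak 332 bp from the closest of these 7. The third stood beside Plac8 (chr5:100572803-100590964), with p300 folds of 2.74 to 4.15 and H3K27ac folds of 5.07 to 10.6.

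The next groups in size held 6 peaks. Inside Ago2, the gene of an effector of microRNA silencing, 6 peaks spread over 24.8 kb (chr15:73137661-73162442) with p300 folds of 3.33 to 5.42 and H3K27ac folds of 7.62 to 9.15. Inside Fyb, which encodes an adaptor of T-cell receptor signalling, 6 peaks lay within 6.26 kb (chr15:6587221-6593481) on an H3K27ac peak of 15886 bp with a fold of 25.1. The strongest of the 6 in Fyb had a p300 fold of 5.64. These 5 groups thus ranged from a single dense domain, in Fyb and near Akap11, to peaks on separate H3K27ac peaks, in Ago2 and beside Plac8.

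Counted by the nearest gene start, 9 distal p300 peaks belonged to Fam107b and 9 to Msra, the gene of a methionine sulfoxide reductase. All of them lay inside a protein-coding gene span. Fam107b had an H3K4me3 peak of fold 40.7 at its start and its 9 peaks all carried H3K27ac (folds 9.997 to 18.1), whereas no H3K4me3 peak was called at Msra, where 8 of the 9 carried H3K27ac (5.11 to 12.7). Prkch, a protein kinase C gene expressed in T cells, held 8 (H3K27ac 5.48 to 14.5). Myb was nearest to 8, at 25163 to 63787 bp (H3K27ac 7.34 to 16.9). Dad1, which borders the T-cell receptor alpha locus, and Akap11 were each nearest to 8, none of them inside the gene. Ago2, Plac8 and Fam133b followed with 7 each, and Ncf1, a subunit gene of the phagocyte oxidase, with 6.

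Genes of T-cell identity and signalling were then examined for distal p300 peaks within 50 kb of the gene. Such a peak was present at 3249 of 21883 protein-coding genes (14.8%). It was present at 21.8% of the 11152 genes with an H3K4me3 peak within 1 kb of the start and at 7.61% of the others. Of 119 genes in 8 T-cell lists, 57 had one (47.9%, 39.1 to 56.8), and of the 99 with H3K4me3 at the start, 52 did (52.5%, 42.8 to 62.1). These genes were longer than most, with a median span of 27027 bp against 17170 bp, which widens the window. Measured from the gene start alone the shares were 44.5% and 12.6%. The T-cell list genes accounted for 119 distinct distal p300 peaks, 5.46% of all. Neighbouring genes that share a peak were each counted, which the intervals do not allow for. The N-MYC peaks off H3K4me3 were within 50 kb of 32 of the 119 genes (26.9%, 19.7 to 35.5), against 5.85% of all protein-coding genes. With a fold of at least 4 in every list, distal p300 peaks were left near 27.7% of the 119 genes and 7.58% of all genes.

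**Figure D4:**
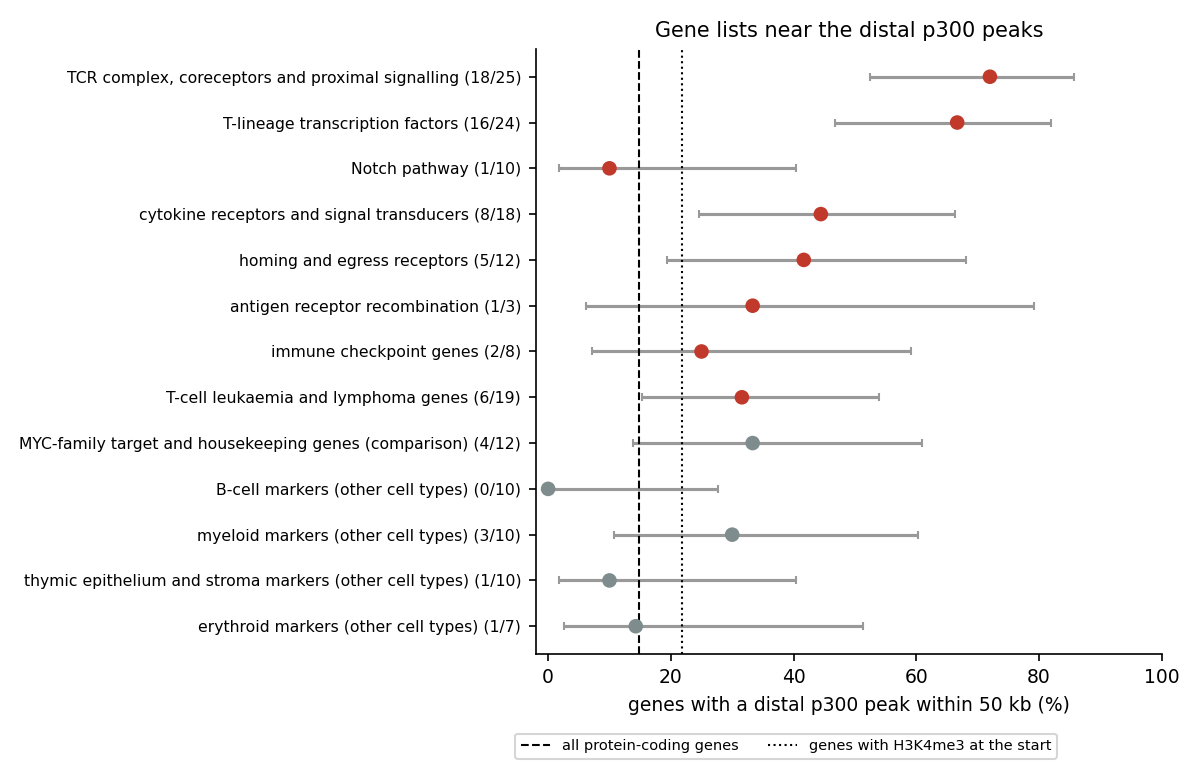
Share of the genes of each list with a distal p300 peak within 50 kb of the gene, with 95% Wilson intervals; counts stand beside the names, T-cell lists are red and comparison lists grey. The dashed line marks all protein-coding genes (14.8%) and the dotted line genes with H3K4me3 at the start (21.8%). The T-cell receptor, transcription factor and cytokine lists lie right of both lines with their whole intervals. The intervals take genes as independent, although neighbours such as Stat5a, Stat5b and Stat3 share peaks and were each counted.

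The list of the T-cell receptor complex, coreceptors and proximal signalling had a distal p300 peak at 18 of 25 genes (72.0%, 52.4 to 85.7). Nfatc1, the calcium-regulated factor downstream of the receptor, had 6 inside its span, 3 on an H3K27ac peak of fold 9.997 and 3 on one of 6.47. The adhesion receptor gene Cd44 had 4, with p300 folds of 3.53 to 4.03 and H3K27ac folds of 4.78 to 17.0. The kinase gene Fyn had 3, 114656 to 118617 bp downstream of its start and all on an H3K27ac peak of fold 17.4. Lcp2, which encodes the adaptor SLP-76, had a pair with p300 folds of 5.64 and 4.28 on an H3K27ac peak of fold 27.8.

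Other genes of this list were chosen for description after their values were seen. The neighbouring CD3 genes Cd3e, Cd3d and Cd3g shared a single distal p300 peak of 282 bp (chr9:44966481-44966762), with a p300 fold of 3.78 and an H3K27ac fold of 13.6. Lck, the coreceptor kinase, had 1 at 3911 bp from the start (p300 4.28, H3K27ac 21.2) and 1 at 36776 bp (2.99 and 7.97). The kinase gene Zap70 had 1 at 578 bp, only 61 bp from an H3K4me3 peak, with a p300 fold of 3.62 and an H3K27ac fold of 23.6. Distances in this list thus ran from promoter flanks to more than 100 kb inside a gene. Cd4, Cd8a, Themis and Cd28 were among the 7 without a distal p300 peak.

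Among T-lineage transcription factors 16 of 24 genes had a distal p300 peak (66.7%, 46.7 to 82.0), and the median length of the genes on this list was 81598 bp. Myb, which encodes a factor of immature T cells and a known oncogene in T-cell leukaemia, had 7 within 50 kb. A group of 6 lay 25163 to 35824 bp upstream of its start with p300 folds of 2.88 to 4.53. The 3 nearer to the gene were on an H3K27ac peak of fold 8.89 and the 3 farther on one of 16.9. Gm33619, whose promoter sequence is printed above, starts within this group, and the printed window of Gm40608 overlaps its first peak. Short H3K4me3 peaks stood among them, 184 bp from the closest of the 6, so the region was not wholly free of that mark.

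Tcf7, which encodes TCF-1, a factor of T-cell commitment, had 6. A pair lay inside the gene at 14259 and 15122 bp from the start, with an H3K27ac fold of 5.42, and 3 lay 26429 to 35313 bp upstream with 9.74, 7.24 and 13.9. The 6th lay beyond the far end of the gene, with an H3K27ac fold of 4.42. Zbtb16, the gene of PLZF, a factor of innate-like T cells, had 5 with H3K27ac folds of 10.6 to 11.1, and Ikzf3, the gene of the lymphoid factor Aiolos, had 4 with 8.55 to 14.3. Bcl11b, the factor that seals T-cell commitment, had 3 lying 76716 to 83177 bp inside the gene, with H3K27ac folds of 10.9 and 12.8; it was chosen after its values were seen. Gata3, Runx1, Satb1 and Id2 were among the 8 without one.

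**Figure D5:**
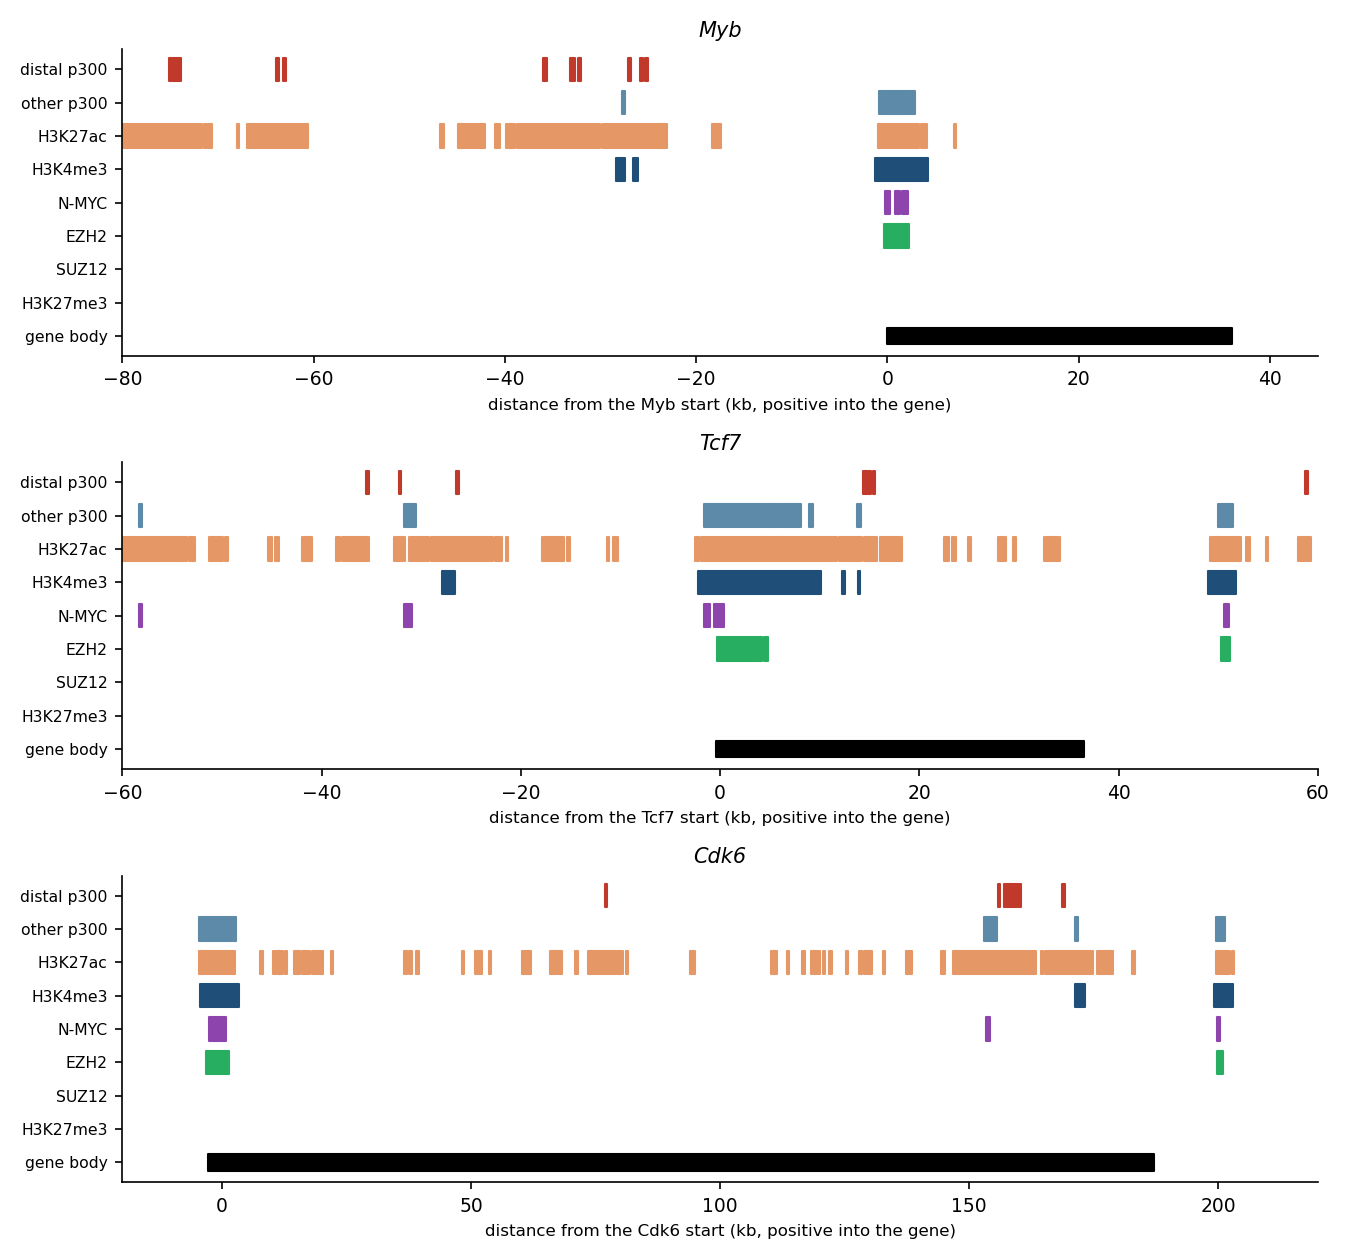
Deposited peaks around Myb, Tcf7 and Cdk6, with distance from the gene start in kb (positive in the direction of transcription), 1 row per peak list, the p300 list divided into distal and other peaks, and the gene body in black. Distal p300 peaks (red) stand on H3K27ac upstream of Myb, on both sides of the Tcf7 start and far inside Cdk6, while EZH2 and most N-MYC peaks stand on H3K4me3 peaks; no SUZ12 or H3K27me3 peak was listed in these windows.

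Cytokine receptors and their signal transducers had a distal p300 peak at 8 of 18 genes (44.4%, 24.6 to 66.3). The neighbouring genes Stat5b and Stat5a, whose products carry IL-7 and IL-2 signals, had 6 and 5 and shared 5, of which 4 lay inside Stat5b and had H3K27ac folds of 6.79 to 14.2. Stat3, in the same neighbourhood, had 3, all shared with Stat5b. Jak1, the kinase of several cytokine receptors, had 3 inside the gene (p300 4.09 to 5.09, H3K27ac 7.16 and 11.4). Il6st, Ifngr1, Socs1 and Socs3 made up the remainder, and both peaks near Socs3, an inhibitor of cytokine signalling, lacked H3K27ac. The receptor genes Il7r, Il2ra, Il2rb and Il2rg had none.

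Homing and egress receptors had a distal p300 peak at 5 of 12 genes (41.7%, 19.3 to 68.0). Cxcr4, which guides T cells to CXCL12, had 2, at 20880 and 22846 bp from the start, on an H3K27ac peak of fold 12.6; the latter reached a p300 fold of 6.39 over 1240 bp. Ccr7 and Ccr4, chemokine receptor genes, had 2 each, with H3K27ac folds of 3.93 and 8.26 and of 12.3 and 14.1. The integrin gene Itgae had 1 with H3K27ac of fold 11.4, and S1pr1, the receptor for egress from the thymus, had 1 without H3K27ac.

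In the list of T-cell leukaemia and lymphoma genes 6 of 19 had a distal p300 peak (31.6%, 15.4 to 54.0), a share whose interval included that of all genes with H3K4me3. Cdk6 had 8, the group of 7 described above and 1 at 77053 bp with an H3K27ac fold of 6.90. Ccnd3, the gene of its partner cyclin D3, had 3 inside the gene with p300 folds of 4.03 to 5.77 and H3K27ac folds of 6.40 to 15.96. Mcl1, a survival gene of the BCL2 family, had 2, and Bcl2l1, Pim1 and Dnmt3a had 1 each. Myc, Mycn, Ccnd2 and Bcl2 had none.

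The Notch pathway, which drives early T-cell development and many T-cell leukaemias, had a distal p300 peak at 1 of 10 genes, Nrarp (45801 bp from the start, H3K27ac 14.5), although 8 of the 10 had H3K4me3 at the start. Notch1, Notch3, Hes1 and Dtx1 had none. Of the recombination genes Rag1, Rag2 and Dntt, Dntt alone had one (p300 3.90, H3K27ac 7.26), and none of the 3 had H3K4me3 or H3K27ac at the start. Of 8 immune checkpoint genes, Pdcd1 (H3K27ac 9.20) and Tigit (5.06) had one.

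Comparison lists gave lower shares than the receptor and factor lists, with wide intervals. MYC-family target and housekeeping genes had a distal p300 peak at 4 of 12 (33.3%, 13.8 to 60.9), Actb with 3 and Ldha with 3. Markers of other cells had one at 0 of 10 genes for B cells (upper Wilson limit 27.8%), 3 of 10 for myeloid cells (Itgam, Mpo, Elane), 1 of 10 for thymic epithelium and stroma (Pecam1) and 1 of 7 for erythroid cells (Tfrc). The label of T cells was checked in the same way: all 10 T-cell markers had H3K4me3 and H3K27ac at the start. Ptcra, Cd8a and Cd8b1 of the receptor list, which were not among these 10, had neither mark there. Cd8a had H3K27me3 at its start (fold 8.29). On that list each of the 2 marks stood at 22 of 25 genes. Of the other markers, H3K4me3 stood at 4 of 10 for B cells, 2 of 10 for myeloid cells, 2 of 10 for stroma and 7 of 7 for erythroid cells, the globin genes Hba-a1 and Hbb-bs included. H3K27ac stood at the start of 6 of 10, 3 of 10, 4 of 10 and 7 of 7 in the same order. Among the marked B-cell genes were Cd79a and Cd79b, with both marks, and Vpreb1 (H3K4me3 fold 34.4, H3K27ac fold 21.4). The myeloid factor gene Spi1 had H3K27ac alone (19.8). Ms4a1, Pax5 and Ebf1 of B cells and Lyz2, Mpo, Adgre1, Elane and S100a8 of myeloid cells had neither mark. The part of other cells in the distal p300 peaks was not tested.

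The antigen receptor loci were added after earlier results. The T-cell receptor alpha locus, which also holds the delta genes, contained 24 p300 peaks, of which 11 were distal ones, all with H3K27ac (folds 7.05 to 20.9). At its 3′ end stood the widest, 1799 bp (chr14:54221905-54223703), with a p300 fold of 3.99 and an H3K27ac fold of 20.3. The beta locus contained 7 p300 peaks and 1 distal one of 2003 bp (chr6:41553196-41555198), with a p300 fold of 4.37 and an H3K27ac fold of 11.4. The gamma locus contained 14 and 3. The immunoglobulin heavy chain locus contained 2 p300 peaks, both on H3K4me3, and the kappa locus none.

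The highest p300 folds were found at sites of varied neighbours. The strongest peak lay near 1700008O03Rik (chr7:44405023-44406442), at 9.49 with an H3K27ac fold of 5.42. It was followed by peaks near Plaur, the urokinase receptor gene (8.75), Rell1 (8.13), the annexin gene Anxa6 (7.63), Gadd45g, a stress-induced gene (7.63), the DNA primase gene Prim2 (7.13), Art2b, which encodes a T-cell surface ADP-ribosyltransferase (6.89), Lrrc23 (6.64), the MAP kinase kinase kinase gene Map3k1 (6.51) and Pck1, a gene of gluconeogenesis (6.42). All 10 carried H3K27ac, with folds from 3.90 near Anxa6 to 25.8 near Rell1. Of these 10, the peaks at Art2b and Lrrc23 had their summit within 300 bp of a gene start. Those named by Rell1, Prim2 and Map3k1 lay far from these nearest starts, at 61776, 91057 and 192309 bp, the Prim2 peak inside that gene.

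The highest H3K27ac folds named here belonged to distal p300 peaks close to an H3K4me3 peak. Sites near Chd2, a chromatin remodeller gene, reached 35.4 and 34.2, and near Ptma, a MYC-regulated gene, 35.1. Ifi47, an interferon-induced GTPase gene, followed with 33.8 at both of its peaks, then Ankrd60 (33.6), Letm2 (33.4) and Cebpb, a bZIP factor gene (31.2). The gap to the nearest H3K4me3 peak was 17 to 1554 bp for these peaks. The stronger Chd2 site nevertheless lay 75201 bp and the Cebpb site 87926 bp from the nearest protein-coding gene start. The other Chd2 site lay 12881 bp and the Ifi47 sites 7702 and 8888 bp from one. At Ptma, Ankrd60 and Letm2 the distance was 2071, 1855 and 597 bp. The p300 folds of all these peaks, 3.28 to 5.52, were within the range of the other distal peaks. None of these peaks was among the 10 highest in p300.

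The 149 distal p300 peaks without H3K27ac lay nearer to gene starts than the others. Of these, 17 (11.4%, 7.25 to 17.5) had their summit within 300 bp of a gene start, against 23 of the 2032 with H3K27ac (1.13%, 0.755 to 1.69), and 38.3% against 18.5% lay within 5 kb. None lay in a group of 3 or more (upper Wilson limit 2.51%), against 15.4% of those with H3K27ac. Their p300 fold was the same, with a median of 3.78 in both, and so was the width, 310 against 312 bp. The nearest H3K27ac peak was a median of 1733 bp away. The rule removed p300 peaks on H3K4me3, which lay near gene starts and nearly all had H3K27ac (98.0% without N-MYC, 99.5% with it). That exclusion bears directly on the contrast in distance, which is a description.

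Several of the 17 genes are known for cilia and sperm tails. Cfap44 (p300 fold 4.15) and Cfap45 (4.65) encode cilia- and flagella-associated proteins, Spef2 (4.28) a sperm flagellar protein, and Dynlrb2 (4.03) a dynein light chain. Ccdc13 (4.80), Ccdc180 (3.53), Fam183b (4.53), Ubxn10 (3.72) and Fsip1 (4.28) were further cilium- or sperm-related genes. The nearest H3K4me3 peak was 5 bp away at Spef2 and 42 bp at Tnfrsf23, but 82488 bp at Dynlrb2, 81230 bp at Ccdc180 and 45404 bp at Cfap44. The remaining genes were Celf6, Nat14, Styk1, Rab36, Chrnb2, Tnfrsf23, 1700013F07Rik and Lrrc24. For Fsip1, Styk1, Rab36 and Lrrc24 the annotation used gave no start, and the distance is to an end of the gene. This grouping was made after the names had been seen, and no list of such genes was tested.

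The edge of the rule was close for some peaks. An excluding peak lay within 100 bp of 112 of the 2181 and within 1 kb of 603, and 2 adjoined such a peak without a shared base. The nearest inside were a peak near Ets2 (p300 fold 3.76), which adjoined an N-MYC peak, one near Angptl6 (3.76), which adjoined H3K4me3, and one near Faap20 (3.73), 1 bp from H3K4me3. Just outside were peaks near Car11 (3.66), with 3 bp of overlap with H3K4me3, near Ano6 (2.82), with 4 bp, and near Slc9a9 (3.66), with 5 bp of N-MYC. In all, 64 of the excluded p300 peaks had a largest overlap under 50 bp.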

How the data were processed

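Peak lists of 7 ChIPmentation libraries were used as deposited, 1 per antibody. The 2 inputs were not analysed here. FastQC, Bowtie2, SAMtools, MACS2 and deepTools and the builds mm10 and GRCm38 are named, without versions or roles, per the submitters' processing notes. The fold enrichment of each peak is a linear ratio over background, deposited by the authors. Significance was deposited by the authors as the −log10 of a p-value and of a q-value per peak, and the score column of the deposited lists entered no result. The authors' lists reach down to a −log10 q of 2.00 to 2.08, so an absent peak is an absent call. The number of reads is not given in the sources used here, so depth is unknown.

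Overlaps of at least 1 bp, distances from p300 summits to gene starts, groups over gaps of up to 10 kb and 95% Wilson intervals were computed in Python 3.11.15 with pandas 2.3.3, numpy 2.4.6 and scipy 1.17.1, and tested on simulated data. Where several peaks overlapped, the one of highest fold was used. RefSeq starts were known for 17491 of 21883 protein-coding genes, and for the other 4392 both gene ends were used. No p300 interval was listed more than once. The members and lists were chosen with earlier results of these data known. Named were the 10 highest p300 folds, the 10 highest H3K27ac folds, the 5 largest groups, 3 peaks with EZH2, 3 peaks on either side of the rule's edge, the 10 genes nearest to most peaks, and in each list up to 4 genes with most peaks and up to 4 without one. All other names were chosen after their values were seen. Some of the peaks with the highest H3K27ac folds are not reported here.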

Additional observations from a re-analysis of the deposited data

How the results depend on the processing

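No paired analysis was possible because each antibody had 1 library. Of 72 alternative values for 9 results, 37 stayed inside the interval of the reported value and 35 left it. The 37 include the values of all 9 results when each line of the p300 list was counted. These could not differ, because that list held no duplicate intervals. The cause of the other changes was not tested.

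When peaks counted as overlapping only if they shared 50% of the shorter of them, this gave 15.5% of p300 peaks as distal, 90.3% with H3K27ac, 21.7% within 5 kb of a gene start, and 1.63% of distal H3K27ac peaks with p300. With a −log10 q of at least 5 in every list these were 11.5% distal, 91.3% with H3K27ac, 9.18% in groups of 3 or more, an H3K27ac fold of 9.79 and a share of 1.84%. A fold of at least 4 in every list gave 8.89% distal, 89.9% with H3K27ac, 17.6% within 5 kb, 5.49% in groups, an H3K27ac fold of 10.4 and 27.7% of T-cell list genes, against 7.58% of all genes. The same q limit in the p300 list alone gave 10.4% distal, 17.6% within 5 kb, 7.25% in groups, 38.7% of T-cell list genes against 9.999% of all genes, an H3K27ac fold of 9.37 and a share of 1.10%. A margin of 1 kb around excluding peaks gave 10.1% distal, a median distance of 22939 bp, 12.0% within 5 kb, 12.7% in groups and 37.0% of T-cell list genes, against 10.4% of all genes. With H3K4me3 and N-MYC as the only excluding lists, 92.0% had H3K27ac and 1.13% had EZH2.

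Joining over 5 or 20 kb placed 10.3 or 20.3% in groups. A 20 kb window gave 35.3% of T-cell list genes, against 8.87% of all genes. Within 2 or 10 kb of a gene start lay 9.67 or 32.6%. The median distance was 9522 bp to any annotated gene and, in an alternative chosen after seeing the data, 26953 bp with only genes of known start. Measuring the gene window from the start alone was also chosen after seeing the data and gave 44.5%. Counting each line of the p300 list could change nothing, since it held no duplicate intervals. Peak calls without read counts limit what can be said of weak sites.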

Other observations

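Distal p300 peaks were spread over all 21 chromosomes. On autosomes their share of p300 peaks ran from 11% on chromosome 8 to 20.5% on chromosome 14, which holds the T-cell receptor alpha locus and the group near Akap11, with 17.8% on chromosome 5, which holds the groups in Cdk6 and beside Plac8. On the X chromosome they were 5 of 176 p300 peaks (2.84%), of which 40% had H3K27ac, and on the Y chromosome 2 of 3. The sex of the animals was not used here.

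Among the 23 distal p300 peaks with H3K27ac within 300 bp of a gene start were those at Jund, an AP-1 subunit gene (p300 fold 4.53, H3K27ac fold 16.3), Pou2af1, a lymphoid coactivator gene (4.34 and 14.1), and Lrrc23, whose product belongs to the radial spoke of cilia (6.64 and 5.17); Jund and Pou2af1 were chosen after their values were seen. The nearest H3K4me3 peak was 596 bp from the p300 peak at Jund, 191 bp at Pou2af1 and 9344 bp at Lrrc23.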
